A study of Mus musculus with 6 samples.

Results

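Ephrins and Eph receptors were followed as 8 genes in retinal endothelial cell preparations of mouse pups at postnatal day 7. The members were 3 ephrins (Efnb2, Efnb1 and Efna1) and 5 receptors (Ephb4, Ephb2, Ephb3, Epha2 and Epha4). They were chosen by gene name out of 24421 rows of expression values, and all 8 were found and passed the filter on low values. Of the 6 libraries, 3 mutant ones came from Anxa3 fl/fl;Tie2-Cre pups and 3 control ones from Anxa3 fl/fl pups, all on the C57BL/6 background. Both groups therefore carried the floxed Anxa3 alleles, and the mutant group alone carried Tie2-Cre, a recombinase driven in endothelial and blood-lineage cells, so that Cre and the loss of Anxa3 cannot be told apart. The question put to the data is what annexin A3 loss does to gene expression, in a mutant studied for the crossing of arteries over veins. The labels do not say how many pups went into a library, and p-values therefore cover the spread among libraries, which may be technical.

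Eph receptors are receptor tyrosine kinases, and ephrins are their ligands on neighbouring cells. Ephrins of the A class are held in the membrane by a lipid anchor and those of the B class span it, so that contact between cells can signal into the receptor-bearing cell and back into the ligand-bearing one. Ephrin-B2 (Efnb2) marks the endothelium of arteries and its receptor EphB4 (Ephb4) that of veins. The same gene family guides axons in the developing retina, where neurons and glia express many of its members.

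Values are FPKM, in which fragments are divided by gene length and library depth, with depth factors of 21062142 to 31137828 reads. Anxa3, the targeted gene, measured 9.78, 12.5 and 15.1 FPKM in mutant replicates 1, 2 and 3, against 18.7, 17.7 and 43.4 FPKM in control replicates 1, 2 and 3. Its groups did not overlap, against 4.35% of all tested genes in either direction and 1.56% with mutants below controls. Its difference on the log2(FPKM + 1) scale was -0.93, with a two-sided exact permutation p of 0.1, the smallest that 20 arrangements allow. In the limma fit used below for the members, Anxa3 had an unadjusted p of 0.0204 and did not pass an adjusted p of 0.05. The libraries held RNA of other retinal cells beside that of endothelium. All 20 pan-endothelial markers reached 1 FPKM in every library, with a summed level of 874 to 1148 FPKM in mutants and 814 to 1723 FPKM in controls. All 12 photoreceptor markers did too, with a summed level of 4488 to 5764 FPKM in mutants and 3673 to 5318 FPKM in controls. Control replicate 3 stood apart, where the pan-endothelial level was 2.0 times and the photoreceptor level 0.703 times that of the other 2 controls. The factor was 1.75 for a list of pericyte and smooth muscle markers, 0.765 for bipolar cell markers and 0.772 for microglia markers. These and later list factors are taken from the mean log2(FPKM + 1) of a list, not from the sums. In such mixed samples fewer cells of a type and less RNA per cell cannot be told apart.

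None of the 8 ephrin and Eph genes differed between mutant and control libraries beyond the spread between replicates. In limma's test with Benjamini-Hochberg adjustment over 13622 genes, 0 of the 8 passed an adjusted p of 0.05, where 0% of all tested genes passed. At an unadjusted limma p under 0.05 there were also 0 of the 8, where 1.21% of all tested genes were. The groups overlapped for all 8. Of all tested genes 4.35% had groups that did not overlap, 2.79% with every mutant library above every control library and 1.56% with every one below. Log2(FPKM + 1) differences ran from -0.22 for Epha2 to 0.017 for Ephb3, 3 above 0 and 5 below, with a median of -0.053 against -0.007 over all genes tested. Limma voom on recovered reads also called 0 of the 8.

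**Figure D1:**
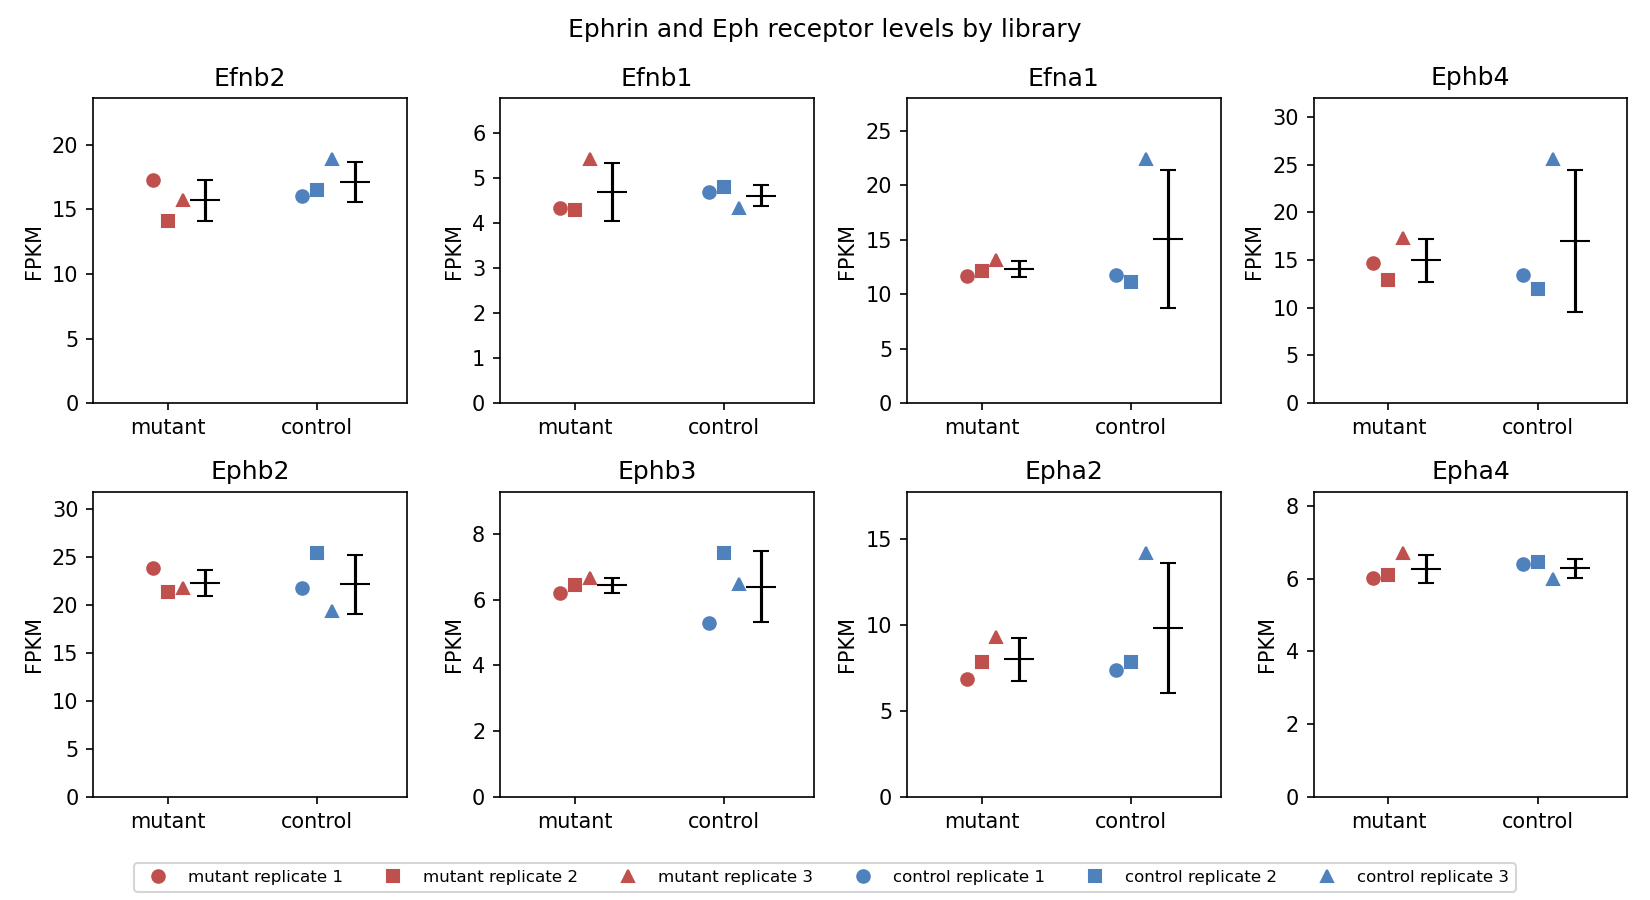
FPKM of the 8 ephrin and Eph receptor genes in each library, with mutants left of controls; symbols give the replicate number, and the bar and whiskers beside them the mean and SD of 3 libraries. Control replicate 3 lies far above the other libraries for Efna1, Ephb4 and Epha2, at 22.4, 25.6 and 14.2 FPKM, and mutant and control points overlap in every panel.

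Efnb2, the arterial ligand, varied 1.34-fold between its lowest and highest library. It measured 17.3, 14.1 and 15.7 FPKM in mutant replicates 1, 2 and 3, against 16, 16.5 and 18.9 FPKM in control replicates 1, 2 and 3. The lowest 2 libraries were mutants and the highest was a control, but mutant replicate 1 lay above 2 of the controls. The means were 15.7 ± 1.61 FPKM in mutants and 17.1 ± 1.56 FPKM in controls (SD, n = 3 each). The log2(FPKM + 1) difference was -0.12, with a limma 95% interval from -0.38 to 0.14, which spans 0.771-fold to 1.10-fold on the scale of FPKM + 1. It was -0.0485 without control replicate 3 and -0.0478 without mutant replicate 2. Among the libraries lettered A to C in the labels (mutant replicate 1 and control replicates 1 and 2) the difference was 0.091. Among those lettered D to F (mutant replicates 2 and 3 and control replicate 3) it was -0.33. The labels do not explain the letters, and each set is too small for a test.

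Ephb4, the venous receptor that binds ephrin-B2, measured 14.7, 12.9 and 17.3 FPKM in mutant replicates 1, 2 and 3, against 13.4, 12 and 25.6 FPKM in control replicates 1, 2 and 3. Control replicate 3 was the highest library by far, and the other 5 lay between 12 and 17.3 FPKM. The means were 15 ± 2.2 FPKM in mutants and 17 ± 7.53 FPKM in controls (SD, n = 3 each). The log2(FPKM + 1) difference of -0.10 had a limma 95% interval from -0.70 to 0.50, or 0.614-fold to 1.41-fold. Without control replicate 3 it became 0.22. The interval for Ephb4 is wider than that for Efnb2.

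The ratio of Efnb2 to Ephb4 was 1.18, 1.09 and 0.905 in mutant replicates 1, 2 and 3, against 1.197, 1.38 and 0.737 in control replicates 1, 2 and 3. Both the highest and the lowest ratio belonged to control libraries, so the mutants lay wholly within the range of the controls. It averaged 1.06 ± 0.141 in mutants and 1.10 ± 0.330 in controls (SD, n = 3 each). Efnb2 was the higher of the pair in 4 of 6 libraries and Ephb4 in mutant replicate 3 and control replicate 3. Those were also the libraries with the highest pan-endothelial levels, at 5.42 in mutant replicate 3 and 6.05 in control replicate 3 on the log2(FPKM + 1) scale, and the part of that level in the ratio was not tested.

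Arterial and venous marker genes, given as context for the pair, had their highest list level in control replicate 3. None of 9 arterial and 7 venous genes passed limma's test. All 9 arterial genes had a lower mean log2 level in mutants, with a median log2 difference of -0.17, and so did 6 of 7 venous genes, with a median of -0.22. All 20 pan-endothelial genes were lower too, with a median of -0.15, where 52.5% of all tested genes were lower. Without control replicate 3 the direction turned for most, with 7 of the 9 arterial genes higher in mutants (median log2 difference 0.13) and 5 of the 7 venous genes higher (median 0.027). The arterial gap junction gene Gja5 measured 1 ± 0.311 FPKM in mutants and 1.33 ± 0.422 FPKM in controls (SD, n = 3 each), and the Notch target Hey1 6.06 ± 0.463 FPKM in mutants and 6.84 ± 1.59 FPKM in controls. Nrp1 and Nrp2 are semaphorin and VEGF co-receptors, Nrp1 on the arterial list and Nrp2 on the venous one. Nrp1 measured 18.9 ± 0.802 FPKM in mutants and 23.1 ± 7.37 FPKM in controls. Nrp2 measured 9.70 ± 1.62 FPKM in mutants and 11.7 ± 3.69 FPKM in controls. The kinase gene Bmx, of the arterial list, measured 1.39 ± 0.088 FPKM in mutants and 1.77 ± 0.886 FPKM in controls. Of the venous genes, the transporter Slc38a5 measured 27.3 ± 3.84 FPKM in mutants and 35.4 ± 13.9 FPKM in controls, and the apelin receptor Aplnr 57.4 ± 10.1 FPKM in mutants and 78.2 ± 38.8 FPKM in controls. Vwf, the von Willebrand factor of venous endothelium, measured 30.5 ± 3.00 FPKM in mutants and 40.4 ± 21.6 FPKM in controls. Control replicate 3 held 1.75 times the arterial and 1.71 times the venous list level of control replicates 1 and 2.

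Efna1, an A-class ephrin that endothelial cells make, measured 11.7, 12.1 and 13.1 FPKM in mutant replicates 1, 2 and 3, against 11.8, 11.1 and 22.4 FPKM in control replicates 1, 2 and 3. The mutants were tightly grouped and lay between the controls. The means were 12.3 ± 0.718 FPKM in mutants and 15.1 ± 6.31 FPKM in controls (SD, n = 3 each), and the log2(FPKM + 1) difference was -0.21, with a limma 95% interval from -0.75 to 0.33. Without control replicate 3 the difference was 0.094.

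Epha2, a receptor for ephrin-A1 in endothelial and epithelial cells, measured 6.87, 7.83 and 9.33 FPKM in mutant replicates 1, 2 and 3, against 7.39, 7.87 and 14.2 FPKM in control replicates 1, 2 and 3. Here too control replicate 3 was highest, and the remaining libraries overlapped. The means were 8.01 ± 1.24 FPKM in mutants and 9.83 ± 3.81 FPKM in controls (SD, n = 3 each). The log2(FPKM + 1) difference was -0.22, with a limma 95% interval from -0.75 to 0.32, and 0.054 without control replicate 3. The ratio of Efna1 to Epha2 stayed close in all libraries, at 1.71, 1.54 and 1.41 in mutant replicates 1, 2 and 3 and 1.59, 1.42 and 1.57 in control replicates 1, 2 and 3.

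Ephb4, Efna1 and Epha2 shared a rise in control replicate 3, the highest library for each. Centred on each gene's mean log2(FPKM + 1), they stood less close in mutant replicate 1, at -0.069, -0.166 and -0.296 in that order. In control replicate 1 they stood close, at -0.196, -0.161 and -0.204. Control replicate 3 held 2.02 times the Ephb4, 1.95 times the Efna1 and 1.86 times the Epha2 FPKM of control replicates 1 and 2. The factor for the pan-endothelial list, taken from its mean log2(FPKM + 1) and so a somewhat different measure, was 2.0. The factor was 1.17 for Efnb2, 1.02 for Ephb3, 0.928 for Epha4, 0.915 for Efnb1 and 0.820 for Ephb2. The arterial list had a factor of 1.75, above that of Efnb2, and which cells gave the Efnb2 reads was not tested. Measured from the pan-endothelial mean of the same library, Ephb4 lay between -1.38 and -1.11 on the log2(FPKM + 1) scale, Efna1 between -1.61 and -1.39, and Epha2 between -2.12 and -1.84. Efnb2 lay between -1.73 and -0.86 and Ephb2 between -1.70 and -0.27, wider ranges. With the pan-endothelial mean as a covariate in limma, the mutant minus control difference became 0.041 for Ephb4, -0.078 for Efna1, -0.094 for Epha2 and -0.093 for Efnb2, and 0 of the 8 were called. The part of the endothelial level in these differences was not tested further. Among the libraries lettered D to F, where control replicate 3 is the lone control, the differences were -0.74 for Ephb4, -0.78 for Efna1 and -0.67 for Epha2. Among those lettered A to C they were 0.20 for Ephb4, 0.032 for Efna1 and -0.13 for Epha2.

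**Figure D2:**
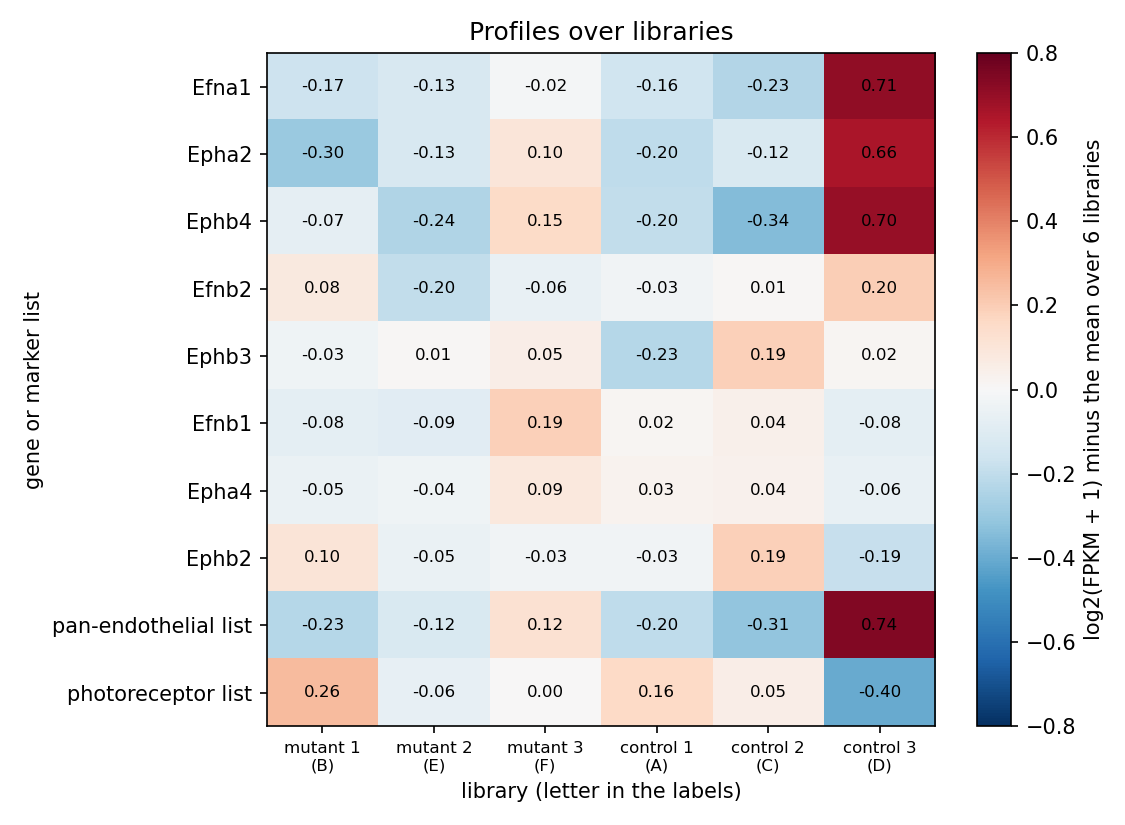
Level of each of the 8 genes and of 2 marker lists in each library, as log2(FPKM + 1) minus its own mean over the 6 libraries; red is above and blue below that mean, and mutants stand left of controls. Efna1, Epha2 and Ephb4 reach 0.71, 0.66 and 0.70 in control replicate 3, next to 0.74 for the pan-endothelial list and -0.40 for the photoreceptor list, while Ephb2 stands at -0.19 there.

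The promoters of Ephb4, Efna1 and Epha2 are shown because these 3 genes rose by similar factors in control replicate 3. That of Efnb2 is added as the arterial partner that varied less. Each is the 250 bases before the gene's start in RefSeq on GRCm38.p6, read 5′ to 3′ on the gene's strand, and all 8 members had an entry. Capitals mark GGAAG, the core that ETS factors bind, and CCAAT, the box bound by NF-Y, each on either strand (CTTCC and ATTGG).
Ephb4: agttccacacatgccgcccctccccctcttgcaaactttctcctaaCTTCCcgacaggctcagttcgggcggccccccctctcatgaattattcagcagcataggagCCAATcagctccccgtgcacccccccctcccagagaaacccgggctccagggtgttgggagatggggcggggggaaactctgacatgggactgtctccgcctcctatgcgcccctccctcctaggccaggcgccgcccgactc
Efna1: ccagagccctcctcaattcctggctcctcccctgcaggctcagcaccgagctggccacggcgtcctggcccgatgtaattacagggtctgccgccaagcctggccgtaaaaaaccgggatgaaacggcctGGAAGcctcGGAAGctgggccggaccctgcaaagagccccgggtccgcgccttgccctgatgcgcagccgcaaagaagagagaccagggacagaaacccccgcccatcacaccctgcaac
Epha2: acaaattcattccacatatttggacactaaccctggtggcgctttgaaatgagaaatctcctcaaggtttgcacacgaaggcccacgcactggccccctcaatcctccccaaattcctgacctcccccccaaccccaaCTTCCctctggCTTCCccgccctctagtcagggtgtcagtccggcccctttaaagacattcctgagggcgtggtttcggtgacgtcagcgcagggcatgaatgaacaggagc
Efnb2: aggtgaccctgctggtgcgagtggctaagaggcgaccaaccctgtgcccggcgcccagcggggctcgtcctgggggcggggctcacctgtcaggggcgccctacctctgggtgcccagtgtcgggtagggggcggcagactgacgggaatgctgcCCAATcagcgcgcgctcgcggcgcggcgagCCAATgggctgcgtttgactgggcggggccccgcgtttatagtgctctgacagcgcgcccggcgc
They lie at chr5:137349859-137350108 on the plus strand, chr3:89280952-89281201 on the minus strand, chr4:141300971-141301220 on the plus strand and chr8:8661243-8661492 on the minus strand. Efna1 had 2 start sites in RefSeq, and the window before the one nearer its GENCODE M21 start was used. Most of that window, with both GGAAG, lies inside the Efna1 span of 89271733 to 89281142 in GENCODE M21. GGAAG occurred 1 time before Ephb4, 2 times before Efna1, 2 times before Epha2 and 0 times before Efnb2, and 64.1% of the 32851 promoter windows of this length held at least 1. CCAAT occurred 1 time before Ephb4, 0 times before Efna1 and Epha2 and 2 times before Efnb2, and 33.8% of all windows held it. Of the remaining members, Efnb1 held 3 GGAAG, Ephb3 and Epha4 held 1 each and Ephb2 held 0. Efnb1, Ephb2 and Epha4 held 1 CCAAT each and Ephb3 held 0. The windows were rich in G and C, from 55.6% before Epha2 to 72.0% before Efnb2, against a median of 52.4% over all windows. These matches describe letters in the windows only.

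Ephb2, the most abundant member, is a receptor for B-class ephrins best known from axon guidance. It measured 23.8, 21.3 and 21.7 FPKM in mutant replicates 1, 2 and 3, against 21.7, 25.4 and 19.3 FPKM in control replicates 1, 2 and 3. Its lowest library was control replicate 3, the one richest in endothelial markers. The means were 22.3 ± 1.37 FPKM in mutants and 22.1 ± 3.06 FPKM in controls (SD, n = 3 each), and the log2(FPKM + 1) difference of 0.014 had a limma 95% interval from -0.25 to 0.28.

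Ephb3, a related receptor of B-class ephrins, measured 6.21, 6.43 and 6.64 FPKM in mutant replicates 1, 2 and 3, against 5.29, 7.42 and 6.47 FPKM in control replicates 1, 2 and 3. The mutants lay inside the range of the controls. The log2(FPKM + 1) difference was 0.017, with a limma 95% interval from -0.29 to 0.32.

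Epha4, which binds ephrins of both classes, was the steadiest member, with 1.12 times as much in its highest as in its lowest library. It measured 6.01, 6.10 and 6.71 FPKM in mutant replicates 1, 2 and 3, against 6.41, 6.46 and 5.98 FPKM in control replicates 1, 2 and 3. Mutant replicate 3 was highest and control replicate 3 lowest. The means were 6.27 ± 0.385 FPKM in mutants and 6.28 ± 0.268 FPKM in controls (SD, n = 3 each). The log2(FPKM + 1) difference was -0.0026, with a limma 95% interval from -0.25 to 0.24, or 0.843-fold to 1.18-fold, the narrowest of the 8.

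Efnb1, a B-class ephrin on the X chromosome, was the lowest member. It measured 4.34, 4.28 and 5.42 FPKM in mutant replicates 1, 2 and 3, against 4.69, 4.79 and 4.34 FPKM in control replicates 1, 2 and 3. Mutant replicate 3 was the highest library, and the other 2 mutants lay at the level of the lowest control. The means were 4.68 ± 0.638 FPKM in mutants and 4.60 ± 0.237 FPKM in controls (SD, n = 3 each), with a log2(FPKM + 1) difference of 0.015 and a limma 95% interval from -0.28 to 0.31.

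**Figure D3:**
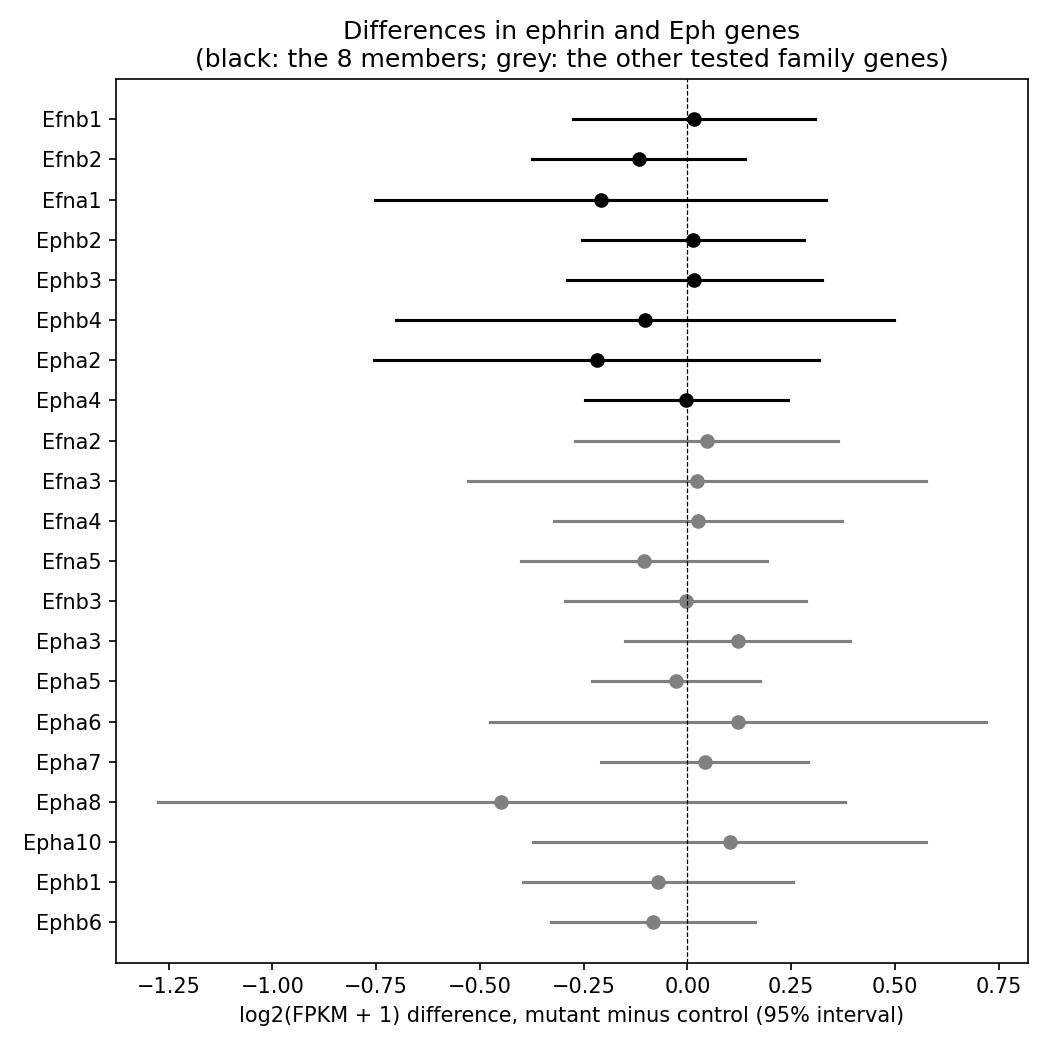
Log2(FPKM + 1) difference, mutant minus control, of the 8 ephrin and Eph members (black) and the 13 other tested family genes (grey), with limma 95% intervals as bars. Every interval spans 0; among the members the intervals of Efna1, Ephb4 and Epha2 are widest, and among the others that of Epha8, from -1.28 to 0.38.

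By mean FPKM over the 6 libraries, a scale that accounts for length, the order was Ephb2 (22.2), Efnb2 (16.4), Ephb4 (16), Efna1 (13.7), Epha2 (8.92), Ephb3 (6.41), Epha4 (6.28) and Efnb1 (4.64). Ephb2 exceeded Efnb2 in 6 of 6 libraries with no overlap of their ranges, and Epha4 exceeded Efnb1 likewise. Efnb2 and Ephb4 were not separated, with this order in 4 of 6 libraries, nor were Ephb3 and Epha4, with 4 of 6. The remaining neighbours, Ephb4 over Efna1, Efna1 over Epha2 and Epha2 over Ephb3, kept their order in 6 of 6 libraries although their ranges over the libraries overlapped. Reads behind a value ran from 307 for Efnb1 in mutant replicate 1 to 3252 for Ephb2 in control replicate 1.

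The genes lie on several chromosomes of GRCm38, by GENCODE M21. Efnb2 spans 8617434 to 8661242 on the minus strand of chromosome 8, and Ephb4 137350109 to 137378669 on the plus strand of chromosome 5. Efna1 lies on chromosome 3 from 89271733 to 89281142 (minus strand) and Efnb1 on chromosome X from 99136130 to 99148991 (plus strand). Chromosome 4 holds both Ephb2, from 136647539 to 136835988 (minus strand), and Epha2, from 141301240 to 141329384 (plus strand). Ephb3 lies on chromosome 16 from 21204755 to 21223305 (plus strand) and Epha4 on chromosome 1 from 77367185 to 77515088 (minus strand). Each value covers all exons counted for a gene and does not separate isoforms.

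Of the 14 other ephrin and Eph genes, 13 passed the filter and 0 passed limma's test, 7 with a higher and 6 with a lower mean log2 level in mutants and a median log2 difference of 0.022. Without control replicate 3, 5 were higher and 8 lower, with a median of -0.047. Epha1 did not pass the filter. It was listed at 0.145, 0.0785 and 0.0439 FPKM in mutant replicates 1, 2 and 3, against 0.0396, 0.0252 and 0 FPKM in control replicates 1, 2 and 3, from at most 10 reads in a library. It was the 1 gene of the 22 in the family whose groups did not overlap, where 4.35% of all tested genes had such groups. The share among genes below the filter was not computed. With so few reads the order of the Epha1 libraries is not read as a difference. With no filter on low values its log2(FPKM + 1) difference was 0.092 (limma unadjusted p 0.0616, adjusted p 1). Epha5 (17 ± 0.409 FPKM in mutants, 17.3 ± 0.977 FPKM in controls), Epha3 (10.8 ± 0.237 FPKM in mutants, 9.90 ± 1.42 FPKM in controls) and Epha7 (9.11 ± 0.381 FPKM in mutants, 8.84 ± 0.850 FPKM in controls), receptors known from retinal axon mapping, were abundant (SD, n = 3 each). The B-class ligand Efnb3, found in neurons, measured 8.03 ± 1.09 FPKM in mutants and 8.03 ± 0.643 FPKM in controls. Log2(FPKM + 1) differences were -0.10 for Efna5, 0.046 for Efna2, 0.026 for Efna4 and 0.022 for Efna3 among the A-class ligands. They were 0.12 for Epha6, 0.10 for Epha10, -0.071 for Ephb1 and -0.083 for Ephb6, a receptor that lacks kinase activity.

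Epha8, an EphA receptor, varied most among the family genes above 5 FPKM. It measured 8.11, 18.6 and 16.4 FPKM in mutant replicates 1, 2 and 3, against 12.1, 19.1 and 29 FPKM in control replicates 1, 2 and 3. The lowest library was a mutant and the highest a control, and the groups overlapped. The log2(FPKM + 1) difference was -0.45, with a limma 95% interval from -1.28 to 0.38 and an adjusted p of 1. Within letters A to C it was -0.83, within D to F it was -0.70, and without control replicate 3 it was -0.15. With a block for the letters it was -0.77, with a limma 95% interval from -1.15 to -0.38, an unadjusted p of 0.00193 and an adjusted p of 0.718. Of all tested genes 6.81% had an unadjusted p under 0.05 in that fit.

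Summed over all 22 family genes by class, the A-class ephrins held 23.9 ± 0.377 FPKM in mutants and 26.9 ± 5.73 FPKM in controls, and the B-class ephrins 28.4 ± 1.89 FPKM in mutants and 29.8 ± 1.90 FPKM in controls (SD, n = 3 each). EphA receptors held 71.9 ± 8.11 FPKM in mutants and 77.9 ± 10.0 FPKM in controls, and EphB receptors 53.5 ± 2.71 FPKM in mutants and 56 ± 5.67 FPKM in controls. Control replicate 3 had the highest sum in every class. Without it the direction turned for the A-class ephrins, at 23.9 FPKM in mutants and 23.6 FPKM in the other 2 controls, and for the EphB receptors, at 53.5 FPKM in mutants and 53.1 FPKM in those controls. The members made up 80.0% to 83.4% of the EphB sum and 69.6% to 75.8% of the ephrin-B sum over the libraries. Their share of the EphA sum was 18.3% to 22.7%, so most EphA transcripts came from genes other than Epha2 and Epha4.

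Of 32 genes listed as signalling partners of Eph receptors and ephrins, all were tested and 0 passed limma's test. In mutants 8 were higher and 24 lower, with a median log2 difference of -0.053, where 52.5% of all tested genes were lower. Sdcbp, which encodes syntenin, a PDZ protein that binds B-class ephrins, measured 37.6, 32.9 and 34.6 FPKM in mutant replicates 1, 2 and 3, against 40.5, 38.3 and 50.8 FPKM in control replicates 1, 2 and 3. It was the 1 partner whose groups did not overlap, against 4.35% of all tested genes in either direction and 1.56% with mutants below controls. Its log2(FPKM + 1) difference was -0.29, with a limma unadjusted p of 0.0481 and an adjusted p of 1. Without control replicate 3 it was -0.17, with an unadjusted limma p of 0.14. The unadjusted limma p was also above 0.05 without control replicate 1 (0.0584), without mutant replicate 2 (0.145) and without mutant replicate 3 (0.0999). The adaptor Crk measured 32 ± 4.38 FPKM in mutants and 35.3 ± 1.81 FPKM in controls, the GTPase Rac1 62.8 ± 7.20 FPKM in mutants and 69.8 ± 7.54 FPKM in controls, and the kinase Abl2 16.7 ± 2.31 FPKM in mutants and 18.5 ± 1.19 FPKM in controls (SD, n = 3 each). Without control replicate 3, 18 of the 32 were higher and 14 lower in mutants.

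Likeness of profiles was measured as the root mean square difference between log2(FPKM + 1) values centred on each gene's mean over the 6 libraries, against 10098 other tested genes of at least 5 FPKM. The 3 genes nearest to Efnb2 were Klf11, Prss23 and Tspan5, at 0.023, 0.024 and 0.026. Those nearest to Ephb4 were Plod1, Sparcl1 and Lsr, at 0.039, 0.045 and 0.054. Arhgap29, Arhgef28 and Slc7a1 lay nearest to Efna1, and Tnfrsf1a, Sipa1l2 and Creb3l2 nearest to Epha2. Commd5, Tubgcp2 and Mina lay nearest to Epha4, and 2410131K14Rik, Mapk8ip1 and Paqr4 nearest to Ephb2. Efnb1 fell under 5 FPKM and had no such search. Among the members searched, so without Efnb1, Efna1 and Epha2 lay closest to each other, at 0.089, and Efna1 and Ephb4 next, at 0.10. Many other genes lay nearer, since Epha2 ranked 115 and Ephb4 ranked 193 among the genes nearest to Efna1. Ephb4 and Epha2 lay 0.14 apart, farther than Ephb2 and Epha4 at 0.115, and Efnb2 and Ephb4 lay 0.28 apart. With 6 libraries of shared depth and composition these distances are descriptions.

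**Figure D4:**
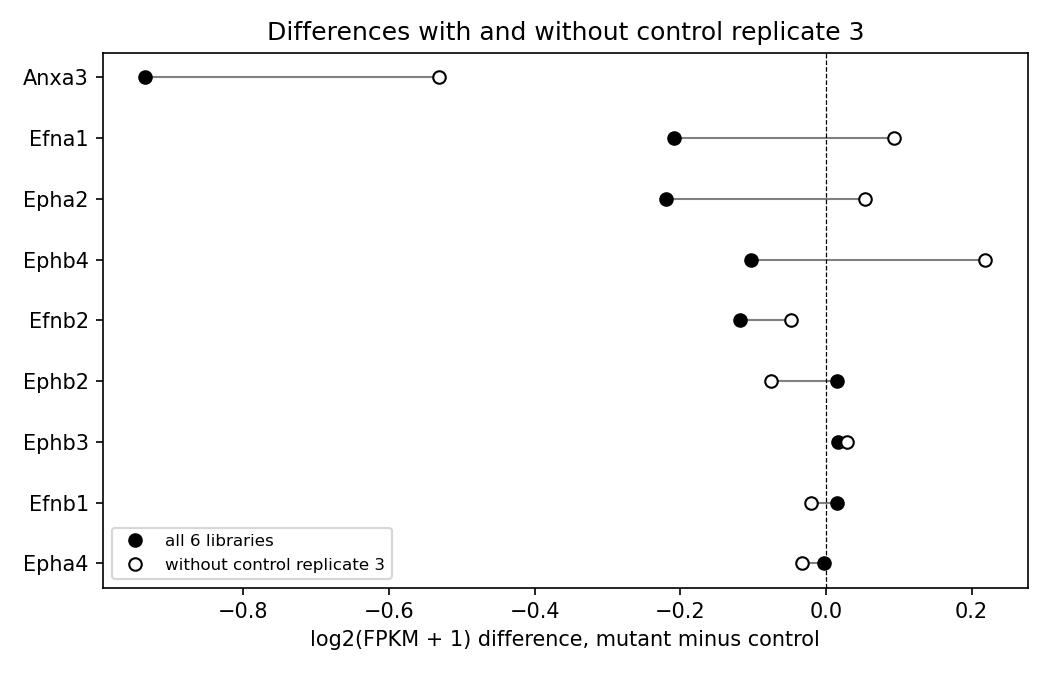
Log2(FPKM + 1) difference, mutant minus control, of the 8 members and of Anxa3 with all 6 libraries (filled) and without control replicate 3 (open). Efna1, Epha2 and Ephb4 move across 0 to 0.094, 0.054 and 0.22, while Anxa3 stays below 0 at -0.53 and Efnb2 at -0.048.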

How the data were processed

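Per the labels' protocols, the RNA sequencing libraries were TruSeq RNA v2 ones, a kit that does not mark strand. The authors deposited FPKM values for 24421 rows of gene symbols, 1 column per library. The submitters' processing notes name build mm10, DESeq2, Cufflinks 2.2.1, bedtools 2.17.0 and STAR 2.5.0b without roles. Which annotation and filters were applied is not given in the sources used here.

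Libraries were grouped by genotype in the labels. Differences were tested with limma 3.58.1 (R 4.3.3, trended prior, two-sided) on log2(FPKM + 1), which understates changes of low genes, over 13622 genes of at least 1 FPKM in at least 3 libraries, adjusted after Benjamini and Hochberg with the threshold at 0.05. The fit was checked on simulated data with far larger changes than those of the members and no outlying library. That check does not speak to the power for small differences. The values are FPKM, so the count test named for the case of counts was not used. Low values were whole multiples of 1 read, and whole reads in all 6 libraries (within 0.001 reads, rising with the count) were recovered for 16489 of 16491 rows above 0 everywhere. They gave the reads behind each value and a voom alternative. Depth was 21062142 to 31137828 reads per library, and the values of the members rested on 307 to 3252 reads. Counting error was not set against the spread between replicates.

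The members and lists were chosen with earlier results of these data known. Named were all members, Anxa3, the tested family genes, up to 4 partners, arterial and venous genes each with the smallest p, and the 3 genes most like each member. Epha1, which did not pass the filter, was named after its values were seen. Those most like Ephb3 are not reported here. Python 3.11.15, numpy 2.4.6, pandas 2.3.3, scipy 1.17.1 and matplotlib 3.10.9 were used.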

Additional observations from a re-analysis of the deposited data

How the results depend on the processing

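Alternatives were a pseudocount of 0.1, no filter, 1 FPKM in all 6 libraries, quantile normalization, a replicate block, a block for library letter (A to C or D to F), the pan-endothelial mean as covariate, library weights, voom, and each library left out. No alternative called a member, another family gene or a partner. Library weights were 0.295, 7 and 0.746 in mutant replicates 1, 2 and 3, and 0.747, 3.35 and 0.26 in control replicates 1, 2 and 3. The weighted fit thus rested mostly on mutant replicate 2 and control replicate 2. Library weights called 145 genes in all, against 0 in the unweighted fit. With them the log2 difference changed sign to -0.093 for Efnb1, 0.0456 for Efna1, -0.18 for Ephb2, -0.095 for Ephb3 and 0.0606 for Ephb4. Efnb2 was at -0.19 (95% interval -0.34 to -0.041, unadjusted limma p 0.0178, adjusted p 0.102) and Ephb2 had an unadjusted limma p of 0.0328 (adjusted p 0.134). These 2 of the 8 members were under an unadjusted p of 0.05 with the weights, where 29.9% of all tested genes were. The covariate turned Ephb2 to -0.0285 and Ephb4 to 0.0413, voom turned Epha4 to 0.021, and the letter block turned Ephb3 to -0.0001 and made Epha2 -0.40 (unadjusted limma p 0.0237, adjusted p 0.718), Efna1 -0.38 and Ephb4 -0.27. With that block 1 of the 8 members and 6.81% of all tested genes were under an unadjusted p of 0.05. The cause was not tested.

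Over single omitted libraries the log2 difference ran from -0.19 to -0.0478 for Efnb2, -0.0761 to 0.0639 for Efnb1, -0.38 to 0.0937 for Efna1, -0.30 to 0.22 for Ephb4, -0.0751 to 0.11 for Ephb2, -0.0943 to 0.12 for Ephb3, -0.38 to 0.0541 for Epha2, -0.0458 to 0.0234 for Epha4 and -1.15 to -0.53 for Anxa3. Libraries of the same number had correlated deviations of 0.249, -0.151 and 0.391, and mutant replicate 2 did not correlate best with its own number. With the replicate block 0 genes were called, and Anxa3 was at -0.93. Epha8 had a 95% interval of -0.80 to -0.099 with it (unadjusted limma p 0.0192, adjusted p 1), where 296 of 13622 genes were under an unadjusted p of 0.05. Limits on precision include the 3 libraries per group and control replicate 3, without which the signs of Efna1, Epha2, Ephb4, Ephb2 and Efnb1 turn. Leaving out some other single library also turned the signs of Epha4, Ephb3, Ephb2 and Efnb1.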

Other observations

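Efna1, Efna3 and Efna4 lie close together on the minus strand of chromosome 3 of GRCm38, Efna3 from 89313899 to 89322965 and Efna4 from 89333390 to 89338028. Their levels differed widely, at 13.7 FPKM for Efna1, 1.24 FPKM for Efna3 and 1.84 FPKM for Efna4 as means over the 6 libraries. Control replicate 3 held 1.95 times the Efna1, 0.733 times the Efna3 and 1.34 times the Efna4 FPKM of control replicates 1 and 2. Efna3 rested on 27 to 65 reads and Efna4 on 64 to 98 reads per library, few for such a factor.

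Ephb2 and Epha8 lie close to each other on the minus strand of chromosome 4, Epha8 from 136929419 to 136956816. Ephb2 varied 1.31-fold and Epha8 3.58-fold between the lowest and highest library, and control replicate 3 held the lowest Ephb2 and the highest Epha8 level.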
